A study of Penicillium oxalicum with 114 samples.

Results

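OES1167 is a strain of the filamentous fungus Penicillium oxalicum that carries extra POX01167 expressed from the gene's own promoter. It is represented by 3 of the 114 libraries of the series, F, S and T, all from mycelium kept for 24 h on an inducing carbon source. The series deleted or overexpressed genes that it describes as transcription factors with a strong influence on cellulase and xylanase production, and it asks which other genes have transcript levels that move with those enzymes. The 3 libraries were set against 12 libraries of the control strain Ku70, numbered 11 to 22, chosen because their tables are of the same kind: all 9834 gene IDs that start with POX are listed, zeros included, at a similar depth.

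Both strains were grown alike, per the labels. About 1 g of mycelium was moved into liquid medium with 2% Avicel, a microcrystalline cellulose, and RNA was taken after 24 h. Ku70 lacks the KU70 gene, whose product takes part in joining broken DNA ends, which makes targeted changes to the genome easier. The labels do not say whether OES1167 also lacks KU70, how many copies of POX01167 it holds, where they sit, or whether more than 1 transformant was used. The libraries are told apart only by a letter or a number, so they may be technical repeats, and p-values then measure only the spread between these libraries. In whole mycelium, fewer cells that express a gene and less RNA per cell cannot be told apart.

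Filamentous fungi that live on plant matter secrete cellulases, which break cellulose down to short sugars, and xylanases, which do the same for the xylan of hemicellulose. Their genes are silent or low on glucose and are switched on by cellulose or its breakdown products through transcription factors that activate them. Other factors repress them, and the same factors often control further genes for sugar uptake, secretion or development. An overexpressing strain complements a deletion strain: it asks what a higher dose of the factor does while the original gene is still in place. Most genes are named here by their ID only, since no table in use pairs these IDs with products, positions or sequences.

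The OES1167 libraries held 13960562 to 14186248 counts and the Ku70 libraries 13837519 to 14731797. Levels are in CPM, counts scaled to the library total. The OES1167 libraries resembled each other closely, with Pearson correlations of 0.987 to 0.995 across genes on log2(CPM + 1), although 176 genes differed at least 2-fold between the highest and the lowest of them. The Ku70 libraries were grouped by their numbers into 4 runs of 3 (11 to 13, 14 to 16, 17 to 19 and 20 to 22). Libraries 11 to 13 stood apart from the other controls, and the runs were less distinct among 14 to 22. Library 14 correlated at 0.963 to 0.971 with libraries 17 to 19 and at 0.946 with library 16. Library 22 correlated at 0.932 with library 14. Correlations were 0.946 to 0.998 within a run, apart from 0.928 between library 22 and libraries 20 and 21, and 0.822 to 0.971 between runs. The correlations of OES1167 with the runs lay between 0.875 and 0.957. Libraries 20 and 21 differed least, with a chi-square per degree of freedom of 1.92 over genes, against 12.1 or more between any pair of OES1167 libraries. The labels give no date or batch for the runs. What the runs of numbers stand for is not known. Because OES1167 was not spread over them, a difference between strains and a difference between such runs cannot be told apart. The results that carry the text are therefore also given against the single runs.

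POX01167 itself was read first, as a check of the strain. It had levels of 428, 414 and 394 CPM in the OES1167 F, S and T libraries, against 118 to 342 CPM (median 234) in the 12 Ku70 libraries. All 3 OES1167 libraries stood above every control, and the spread among them was narrow. The mean was 412 ± 17.3 CPM in OES1167 and 237 ± 67.9 CPM in Ku70 (SD, n = 3 and 12), a log2 fold change of 0.91 (SE 0.19, adjusted p = 0.0184, edgeR's quasi-likelihood test with Benjamini-Hochberg adjustment over all genes). That is a 1.88-fold higher level. Calls required an adjusted p under 0.05 and a log2 fold change beyond 1 or -1, so POX01167 passed the test but lay just under the minimum fold. Against the runs 11 to 13, 14 to 16, 17 to 19 and 20 to 22 alone its log2 fold changes were 0.77, 1.46, 0.84 and 0.65. All 3 libraries thus differed in the direction of the strain's label, with a modest increase. The means of the control runs themselves lay between 150 and 326 CPM, and strain and run cannot be told apart here. The length implied by the deposited counts and FPKM of POX01167 was 2246 to 2252 bases in all 15 libraries, so the libraries were quantified on the same transcript model.

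**Figure D1:**
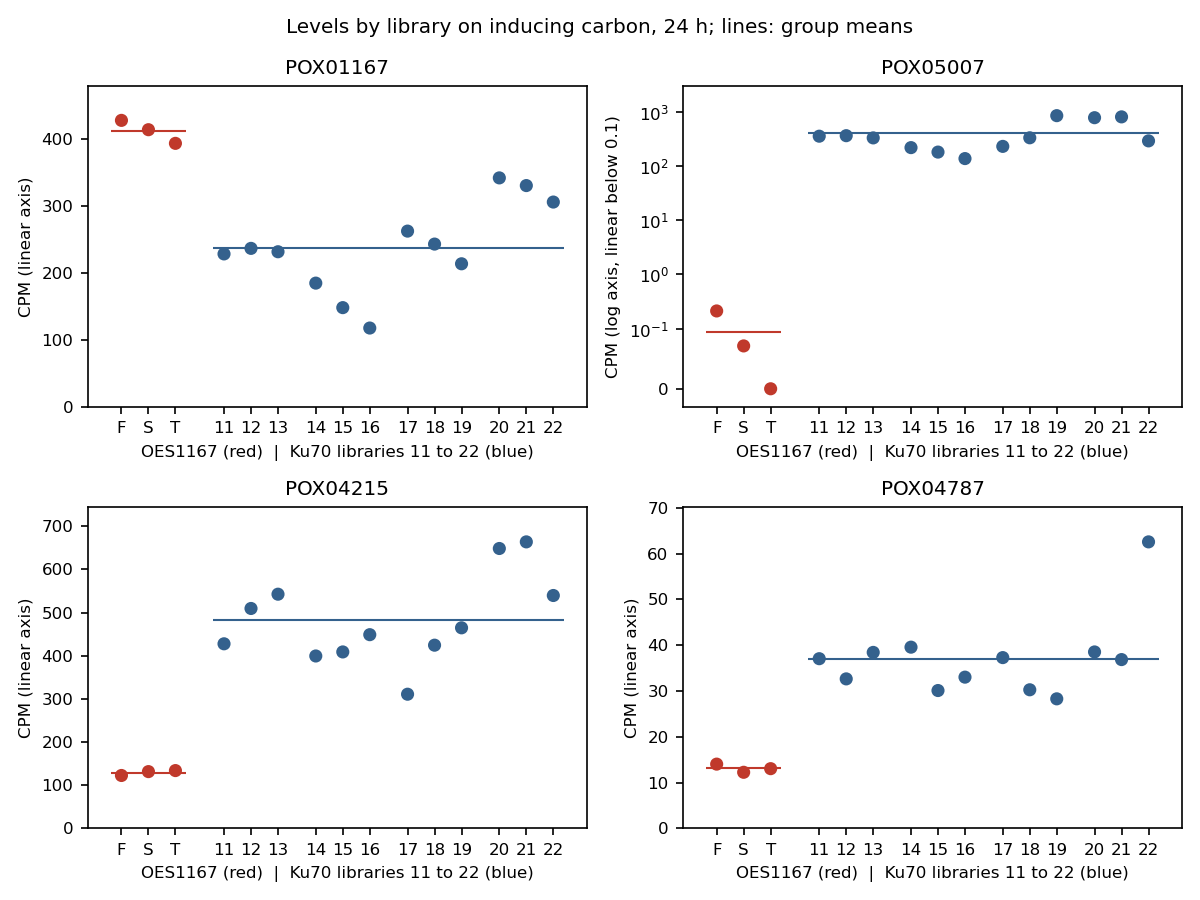
Levels in CPM of POX01167, POX05007, POX04215 and POX04787 in OES1167 libraries F, S and T (red, left) and in Ku70 libraries 11 to 22 (blue, grouped in runs of 3); points are libraries and lines are group means. POX01167 is at 394 to 428 CPM in OES1167 and at 118 to 342 CPM in Ku70, and the other 3 genes are lower in all OES1167 libraries than in any control; the axis of POX05007 is logarithmic above 0.1 CPM.

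Across the transcriptome, 57 genes were higher in OES1167 than in Ku70 (0.666% of the 8562 genes tested) and 27 were lower (0.315%), together 84 (0.981%). The adjusted p alone was passed by 171 genes (2%), of which 128 were higher and 43 lower. The 3 OES1167 libraries lay above all 12 controls for 200 genes (2.34%) and below all 12 for 286 (3.34%). The median log2 fold change over all genes was -0.06. Of the called genes, 51 of the 57 higher and 25 of the 27 lower ones did not overlap with the controls.

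These counts rest on few libraries. Leaving out OES1167 library S left 1 higher and 3 lower calls, leaving out T left 10 and 4, and leaving out F left 36 and 6. Summing each run of 3 controls to 1 library left 0 higher and 4 lower calls in edgeR. Against a single run the calls were more numerous: 420 higher and 441 lower against 11 to 13 (10.2% of genes tested, both directions together), 441 and 742 against 14 to 16 (14%), 488 and 431 against 17 to 19 (10.9%), and 366 and 403 against 20 to 22 (8.95%). Of the 84 genes called against all 12 controls, 31 (21 higher and 10 lower) were called in the same direction against each of the 4 runs. Of all 8562 genes tested, 24 were called higher and 14 lower against each run. These fits reuse the OES1167 libraries and split the same controls, so the calls by run are no independent support.

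**Figure D2:**
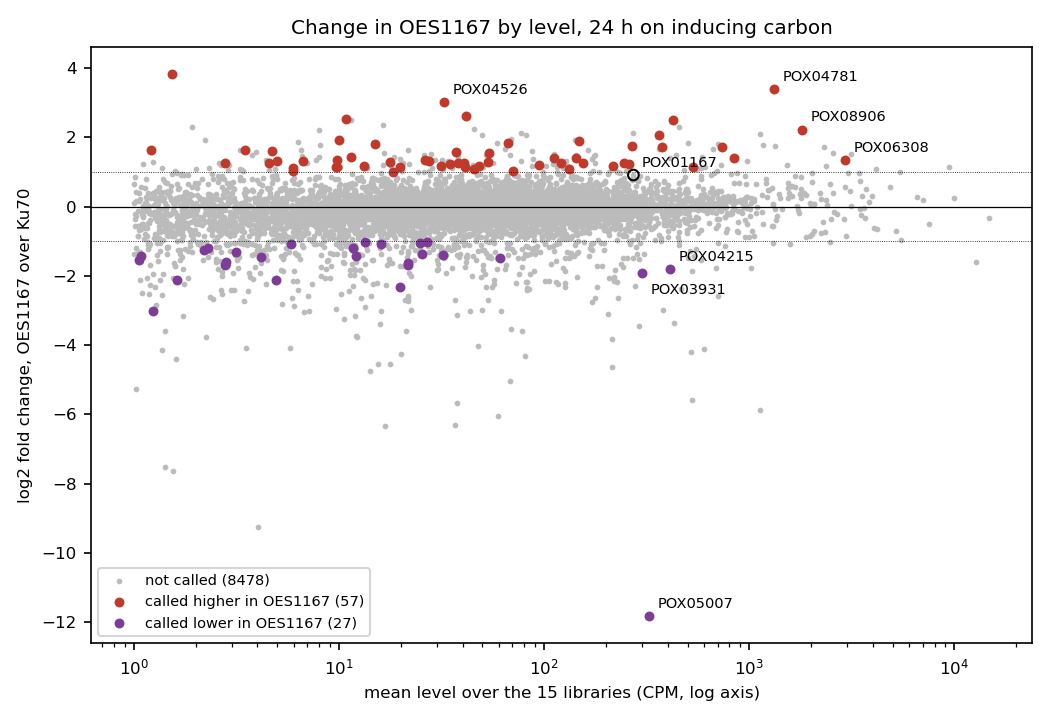
Log2 fold change of OES1167 over Ku70 against the mean level over the 15 libraries (CPM, log axis) for the 8562 genes tested; red and purple points are the 57 genes called higher and the 27 called lower, and dotted lines mark the minimum fold. POX05007 stands far below every other called gene, and POX01167, circled, lies just under the upper dotted line.

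The near absence of 1 transcript set OES1167 apart from every other library. POX05007 had 3, 1 and 0 counts in OES1167 libraries F, S and T, which is 0.211, 0.0712 and 0 CPM, against 137 to 851 CPM (median 331) in the 12 Ku70 libraries. No other library of the series came near this: POX05007 was at 4.39 CPM or more in all 111 of them, with a median of 483 CPM. Low levels were also found in the 3 libraries labelled dPOX01167 on Avicel at 36 h, with 4.39, 6.89 and 14.2 CPM, against 169 to 231 CPM in Ku70 on Avicel at 36 h. The label of those 3 libraries was not borne out by POX01167, which stood at 95.6 to 207 CPM in them. Among the dClrB libraries on wheat bran plus Avicel at 12 h, the lowest had 13.5 CPM of POX05007. Over the summed OES1167 libraries POX05007 had 4 counts, or 0.0948 CPM, and the mean of the Ku70 libraries was 4289 times as high (95% interval of the ratio 1675 to 15741, exact Poisson on the OES1167 counts, counting error only). The fitted log2 fold change was -11.83 (SE 1.01, adjusted p = 3.67e-05), a value that depends on the prior count edgeR adds to counts this low. Against the single runs it lay between -12.25 and -10.75. The gene was called lower in all 35 alternative settings that were run, which reuse the same OES1167 values. Its coding length is 1188 bases.

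The genes numbered next to POX05007 did not share its level, as far as neighbouring numbers mean neighbouring genes. POX05006 had 34.5 to 37.8 CPM in OES1167 and 18.3 to 50.8 CPM in Ku70, and POX05008 had 49.9 to 66.6 CPM in OES1167 and 47.5 to 111 CPM in Ku70. Of the 10 IDs from POX05002 to POX05012 other than POX05007, 1 was called: POX05009, at 13.6, 12.5 and 12.5 CPM in the OES1167 F, S and T libraries against 19.2 to 39.5 CPM in Ku70 (log2 fold change -1.04, SE 0.23, adjusted p = 0.0315). Of all genes tested 0.981% were called, and 1 of 10 allows no conclusion about these IDs. POX05009 was called against 1 of the 4 runs. On wheat bran plus Avicel, POX05007 had 706, 778 and 777 CPM in dPOX01167, the strain without POX01167, at 24 h, against 356, 492 and 473 CPM in its own Ku70 controls (log2 fold change 0.78, SE 0.68, adjusted p = 0.983).

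A further 3 of the genes lower in OES1167 were still called when each run of controls was summed to 1 library. POX04215 had 122 to 134 CPM in OES1167, against 311 to 664 CPM (median 457) in Ku70. Its log2 fold change was -1.80 (SE 0.19, adjusted p = 0.000253), and it lay between -1.98 and -1.58 against the 4 runs. POX04787 had 12.2 to 14.03 CPM in OES1167, against 28.3 to 62.6 CPM in Ku70 (-1.40, SE 0.17, adjusted p = 0.00121; -1.51 to -1.22 by run). Both were called after leaving out any of the 15 libraries in turn, and neither was called with all 24 Ku70 induced libraries as controls. POX04787 follows the cellulase gene POX04786 in the numbering, and POX04786 itself differed by 0.24 (SE 0.55, adjusted p = 0.866). POX04735 had 4.58, 4.13 and 4.58 CPM in the OES1167 F, S and T libraries, against 11.4 to 46.3 CPM in Ku70 (-2.32, SE 0.35, adjusted p = 0.00471), and lost its call only when library S was left out among the 15. POX04735 was not called with all 24 Ku70 induced libraries either. None of these 3 genes was below all of 21 further libraries of the same table kind, described with POX04594 below. POX04215 had 65.9 to 114 CPM in dPOX02968 on inducing carbon at 24 h, below every OES1167 library. The lowest values in the 21 were 12.9 CPM for POX04787 and 3.18 CPM for POX04735. Medians over the 21 were 632, 22.1 and 11.2 CPM for POX04215, POX04787 and POX04735, above OES1167.

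The other falls among the 10 largest, by a rule of size given with the methods, were smaller or less even. POX03931 fell to 73.9 to 106 CPM in OES1167, against 161 to 618 CPM in Ku70 (-1.93, SE 0.44, adjusted p = 0.0369). With a coding length of 9624 bases it is the longest of the genes named here, and against libraries 20 to 22 alone it was not called (-1.13, adjusted p = 0.0805). POX08880 had 21.1 to 26.9 CPM in OES1167, against 40.7 to 133 CPM in Ku70 (-1.47, SE 0.26, adjusted p = 0.0105; -1.71 to -1.16 by run). POX09786, POX03627, POX07268 and POX08876 had mean levels of 4.74 to 10.3 CPM in OES1167 and log2 fold changes of -1.67, -1.43, -1.38 and -1.20. POX08876 and POX08880 stand 4 numbers apart. The falls of this paragraph, and that of POX05009, were not called without library S, and several depended on further libraries. Of the 15 fits that left out 1 library, POX09786 was called in 4, POX07268 in 6, POX03931 in 8, POX08876 in 11, POX03627 in 12 and POX08880 in 13.

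Among the rises, POX04781 was the largest of the 10 by fold and also 1 of the 5 most abundant. It had 3134, 5581 and 5372 CPM in the OES1167 F, S and T libraries, against 49.5 to 1146 CPM (median 145) in Ku70. Its level differed between the runs of controls, with means of 1082, 113, 66.5 and 635 CPM, and the log2 fold changes against them were 2.07, 5.35, 6.19 and 3.22. Against all 12 controls the log2 fold change was 3.40 (SE 0.83, adjusted p = 0.0482), and the call remained in 3 of the 15 fits that left out 1 library. Over all 24 Ku70 induced libraries, which include shallower ones, POX04781 reached 9543 CPM, above every OES1167 library, and with these 24 as controls it was not called. In FPKM, which divides by transcript length, POX04781 averaged 11248 ± 3250 in OES1167 and 1137 ± 1144 in Ku70 (SD). In OES1167 that is above the cellulase gene POX04786, which averaged 7951 ± 324 FPKM there.

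POX08906 was the other highly abundant gene with a large rise. It had 4171, 5391 and 4863 CPM in the OES1167 F, S and T libraries, against 329 to 2499 CPM (median 745) in Ku70, a log2 fold change of 2.22 (SE 0.52, adjusted p = 0.0401). It too was highest among the controls in libraries 11 to 13, and the log2 fold change against that run was 1.02. POX06308 had the most even rise of the abundant genes. It had 5331, 5542 and 5586 CPM in OES1167, against 1415 to 2935 CPM in Ku70 (1.34, SE 0.19, adjusted p = 0.00353), and its log2 fold changes against the 4 runs were 1.16 to 1.71. POX01636 and POX09822 averaged 1620 ± 330 and 1635 ± 112 CPM in OES1167, against 516 ± 200 and 649 ± 266 CPM in Ku70, with log2 fold changes of 1.73 and 1.40. Of the 15 fits that left out 1 library, POX08906 and POX09822 were each called in 5, POX01636 in 13 and POX06308 in 14. With all 24 Ku70 induced libraries as controls, POX01636 alone of these 4 was called.

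Several rises came from low levels in the controls. POX04526 had 93.6, 119 and 102 CPM in the OES1167 F, S and T libraries, against 3.46 to 47.3 CPM (median 12.4) in Ku70 (3.01, SE 0.46, adjusted p = 0.00471). POX07173 had 113 to 127 CPM in OES1167, against 5.85 to 63.0 CPM in Ku70 (2.61, SE 0.51, adjusted p = 0.0155). The highest controls of both were in the run 20 to 22, and both were still called against that run. POX00033 rose to 29.3 to 34.7 CPM in OES1167, against 1.87 to 10.5 CPM in Ku70 (2.52). POX02066 (2.06), POX04769 (1.88), POX03820 (1.92) and POX08613 (1.84) were also above all controls, and each was called against all 4 runs. POX05378 varied most within OES1167, with 582, 2034 and 1076 CPM in the F, S and T libraries, against 75.4 to 466 CPM in Ku70 (2.51, SE 0.50). None of the rises in this paragraph was called without library S. Over all 24 Ku70 induced libraries POX04526 reached 120 CPM and POX07173 241 CPM, which overlaps with OES1167, and with these 24 as controls POX02066 was the 1 gene of this paragraph still called.

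Of all rises, only that of POX04594 was called after leaving out any of the 15 libraries in turn. It was singled out for this after its values were seen and is not among the 10 largest. It had 555, 614 and 593 CPM in the OES1167 F, S and T libraries, against 127 to 245 CPM (median 195) in Ku70. The log2 fold change was 1.74 (SE 0.17, adjusted p = 0.000126), and 1.34 to 2.07 against the runs. In 21 further libraries of the same table kind, from dPOX02968 and from Ku70 and dPOX07277 cultures with added lipids, it stood at 60.0 to 191 CPM, also below OES1167. Of the 57 higher genes, 22 lay above all of those 21 libraries, and 5 of the 27 lower genes lay below all of them. Of all genes tested, 3.81% lay above those libraries and 2.46% lay below. The calls rest on the same OES1167 values, so a larger share among the called genes is no independent support for them.

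**Figure D3:**
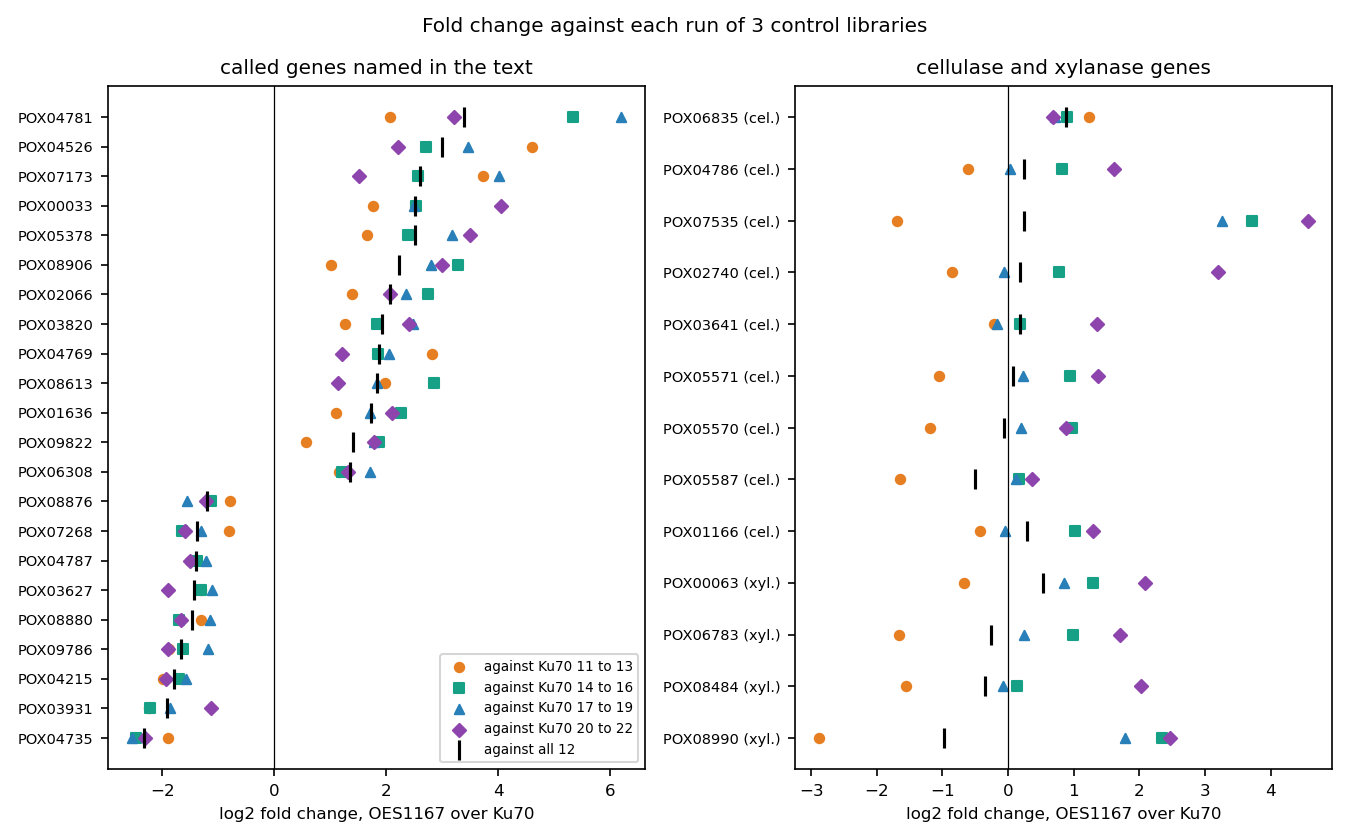
Log2 fold change of OES1167 over each run of 3 Ku70 libraries (coloured symbols) and over all 12 (black bars) for the called genes named in the text except POX05007 (left) and for the 9 cellulase and 4 xylanase genes (right). The called genes, which were picked with these same libraries, keep 1 direction against all 4 runs. Most enzyme genes are lower in OES1167 than in libraries 11 to 13 and higher than in libraries 20 to 22.

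The enzyme genes themselves gave no call in edgeR against all 12 controls. The 9 cellulase genes were taken by ID from earlier publications of the study's group. Against all 12 controls, edgeR called 0 of 9 in either direction, with 1 at an unadjusted p under 0.05, and DESeq2 and limma also called 0. As edgeR called 0.981% of all genes tested, 0 of 9 does not set the cellulase genes apart. Their median log2 fold change was 0.18, beside -0.06 over all genes, and 7 of 9 were positive. Over all 8562 genes tested in edgeR, 1404 had an unadjusted p under 0.05 and 3671 a positive log2 fold change. No cellulase gene lay outside the range of the controls. POX06835 was the 1 gene past the adjusted p, with 417, 446 and 453 CPM in the OES1167 F, S and T libraries against 167 to 446 CPM in Ku70 (0.87, SE 0.17, adjusted p = 0.0162). It was above 11 of the 12 controls in all 3 libraries. POX04786, the most abundant, had 10941 to 11758 CPM in OES1167 and 3933 to 19267 CPM in Ku70. POX05587 had 5138 to 5869 CPM in OES1167 and 3150 to 17405 CPM in Ku70 (-0.51, SE 0.58, adjusted p = 0.710).

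The direction of the cellulase genes differed between the runs of controls. The median log2 fold change of the 9 genes was -0.86, 0.90, 0.13 and 1.36 against the runs 11 to 13, 14 to 16, 17 to 19 and 20 to 22. Against 11 to 13 edgeR called 1 higher and 4 lower, and against the other runs it called 2, 1 and 6 higher and 0 lower. Over all genes the same 4 fits called 420, 441, 488 and 366 higher and 441, 742, 431 and 403 lower. That is 8.95% to 14% of genes, both directions together, and the difference from these shares was not tested. POX07535 shows the reach of the difference between runs. It had 131 to 212 CPM in OES1167, against a mean of 572 CPM in libraries 11 to 13 and of 14.2, 19.5 and 9.69 CPM in the other 3 runs. Its log2 fold changes were -1.69, 3.71, 3.26 and 4.56. POX06835 was the exception, with values of 1.24, 0.90, 0.72 and 0.68, all positive.

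The 4 xylanase genes, also taken by ID, followed the same order of runs. Against all 12 controls edgeR called 0 of 4, with 0 at an unadjusted p under 0.05, limma called 0 and DESeq2 called 1, POX08990, at 1.77 (adjusted p = 0.00181). edgeR fitted that gene at -0.98 (SE 1.44), and DESeq2 without its replacement of outlying counts fitted it at -0.99 and gave no p. Over all genes tested edgeR called 0.981% and DESeq2 called 91 higher and 156 lower, so 0 of 4 in edgeR does not set these genes apart. The median log2 fold change of the 4 xylanase genes was -0.30 against all 12 and -1.61, 1.14, 0.54 and 2.06 against the runs. Calls by run were 3 lower against 11 to 13, and 2, 1 and 4 higher against the others. The same fits called 8.95% to 14% of all genes, both directions together. POX00063 had 1767 to 2209 CPM in OES1167 and 443 to 3303 CPM in Ku70, and POX08484 had 2109 to 2616 CPM in OES1167 and 470 to 7396 CPM in Ku70. POX08990 was lowest, with 15.7 to 31.7 CPM in OES1167 and 3.44 to 197 CPM in Ku70. The standard errors of the 13 enzyme genes against all 12 controls were 0.17 to 1.45, and none but POX06835 passed the adjusted p in edgeR.

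**Figure D4:**
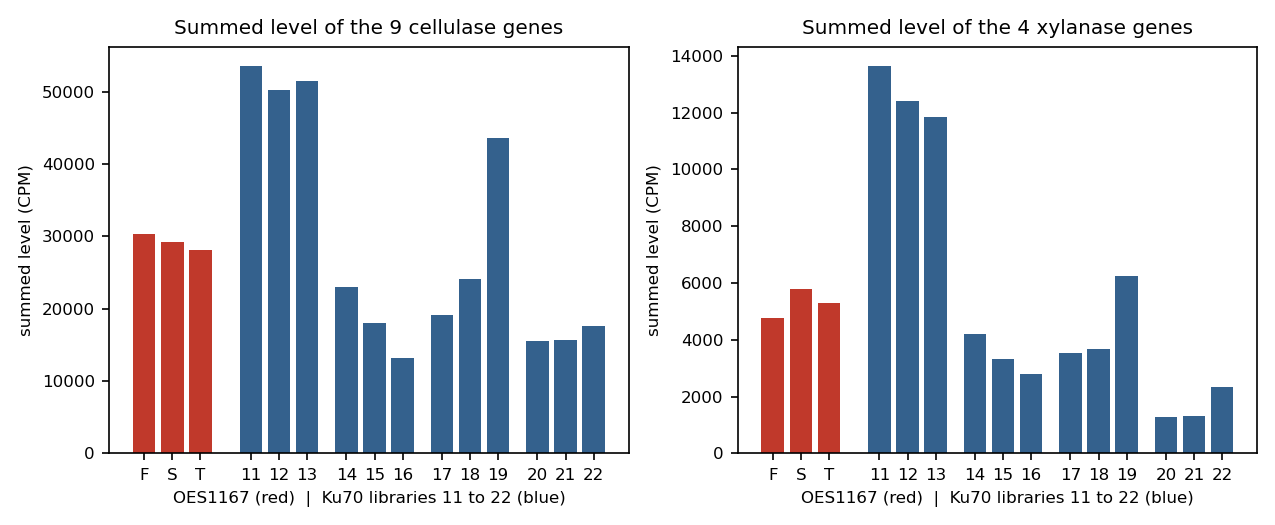
Summed CPM of the 9 cellulase genes (left) and the 4 xylanase genes (right) in OES1167 libraries F, S and T (red) and Ku70 libraries 11 to 22 (blue); each bar is 1 library. The cellulase sum is 28131 to 30325 CPM in OES1167 and 13149 to 53517 CPM in Ku70, and both sums are highest in libraries 11 to 13.

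As a share of each library, the 9 cellulase genes took 2.81% to 3.03% of all counts in OES1167 and 1.31% to 5.35% (median 2.11%) in Ku70. The 4 xylanase genes summed to 4759 to 5777 CPM in OES1167 and to 1265 to 13632 CPM (median 3601) in Ku70. A further 4 IDs fixed with the lists, POX01356, POX02412, POX09352 and POX03890, are given without a role. edgeR, DESeq2 and limma called 0 of these 4, with 0 at an unadjusted p under 0.05, and their median log2 fold change was -0.33, and 0.015, -0.37, -0.56 and -0.19 against the runs. With 0.981% of all genes called in edgeR, 0 of 4 does not set these IDs apart.

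The regulators that the series deleted elsewhere were not all at control level in OES1167. POX04420 had 208, 316 and 321 CPM in the OES1167 F, S and T libraries, against 81.9 to 167 CPM in Ku70 (1.25, SE 0.25, adjusted p = 0.0162). POX07277 had 38.8, 73.2 and 50.2 CPM in OES1167, against 19.7 to 30.3 CPM in Ku70 (1.16, SE 0.18, adjusted p = 0.00539). Both stood above all 12 controls, and both were called against 3 of the 4 runs. Neither was called without library S, and POX04420 was not called without T either. Over all 24 Ku70 induced libraries POX07277 reached 88.0 CPM, above every OES1167 library. With these 24 as controls POX04420 was called and POX07277 was not. POX07278, next to POX07277 in the numbering, was also called higher (1.18, adjusted p = 0.0189). Without strand information on the counting, reads of overlapping neighbours cannot be told apart. POX02968 had 120 to 162 CPM in OES1167 and 71.0 to 207 CPM in Ku70 (0.09, SE 0.28, adjusted p = 0.912). POX01960, which fell by 9.36 (log2) in dClrB on Avicel at 12 h, had 214 to 245 CPM in OES1167 and 162 to 375 CPM in Ku70 (-0.02, SE 0.23).

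Around POX01167 in the numbering, edgeR called 0 of the 10 IDs from POX01162 to POX01172, with 2 at an unadjusted p under 0.05, and DESeq2 and limma also called 0. Over all 8562 genes tested, edgeR called 0.981%, so 0 of 10 does not set these IDs apart, and 1404 genes had an unadjusted p under 0.05. Of the 10, 8 had a negative log2 fold change, beside 4891 of the 8562. The median of the 10 was -0.39 against all 12 controls and -0.94, 0.033, -0.35 and -0.16 against the runs. The cellulase gene POX01166, directly before POX01167, had 6983 to 8458 CPM in OES1167 and 2630 to 10399 CPM in Ku70 (0.29, SE 0.45). POX01168, directly after it, had 691 to 717 CPM in OES1167 against 777 to 1484 CPM in Ku70. All 3 OES1167 libraries were below all controls, but the log2 fold change of -0.50 (SE 0.27, adjusted p = 0.375) did not pass the test. POX01172 had 183 to 269 CPM in OES1167 and 208 to 943 CPM in Ku70 (-1.10, SE 0.49, adjusted p = 0.265).

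The deletion of the same gene gave values to set beside these. The strain dPOX01167 was grown on wheat bran plus Avicel for 12, 24 and 36 h (n = 3 each) and compared with its own Ku70 controls (n = 2, 3 and 3), so that no library is shared, although medium and depth differ. POX01167 was at 0 to 0.791 CPM in those 9 dPOX01167 libraries and at 9.64 to 27.3 CPM in their Ku70 controls. At 1 or more of the 3 times, 92 genes were called (0.248% higher and 0.224% lower of 8049 genes at 12 h, 0.124% and 0.0994% at 24 h, 0.373% and 0.186% at 36 h). All 92 were tested in OES1167 and 1 was called there (1.09%), close to the 0.981% over all genes. In OES1167, 13 of the 92 (14.1%) did not overlap with the controls, beside 5.68% of all genes. The 13 include POX01167 itself, and their directions were mixed. At the time of their call in dPOX01167, POX01099, POX02794, POX07023, POX07154, POX07207, POX08783, POX09025 and POX09440 went the same way in both strains. POX01167, POX01168, POX01927, POX03627 and POX09195 went opposite ways.

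The gene called in both was POX03627, whose values are given as a description, since 1 shared call is near the background. In OES1167 it had 5.50, 4.34 and 4.37 CPM in the F, S and T libraries, against 6.40 to 29.99 CPM (median 12.3) in Ku70 (-1.43, SE 0.29, adjusted p = 0.0162), and it was called lower against each of the 4 runs. On wheat bran plus Avicel at 24 h it had 1006, 1080 and 993 CPM in dPOX01167, against 343, 400 and 386 CPM in Ku70 (1.45, SE 0.27, adjusted p = 0.0212). At 36 h it had 106, 92.1 and 84.2 CPM in dPOX01167, against 46, 27.5 and 35.5 CPM in Ku70 (1.25, SE 0.27, adjusted p = 0.0196), and at 12 h the difference was 0.01 (SE 0.30). In OES1167 the call of POX03627 was lost when any 1 of the libraries F, S and T was left out.

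POX01168, the gene after POX01167, was the only other one of the 92 besides POX01167 itself that was called at all 3 times. It had 19.1 to 29.3 CPM in dPOX01167 against 1.51 to 2.53 CPM in Ku70 at 12 h, 40.3 to 59.4 against 4.35 to 10.1 CPM at 24 h, and 40.2 to 65.2 against 3.79 to 7.38 CPM at 36 h. Its log2 fold changes were 3.55, 2.67 and 3.10 (SE 0.49, 0.39 and 0.39), beside -0.50 in OES1167. Reads that run from 1 of these neighbours into the other could not be separated here.

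**Figure D5:**
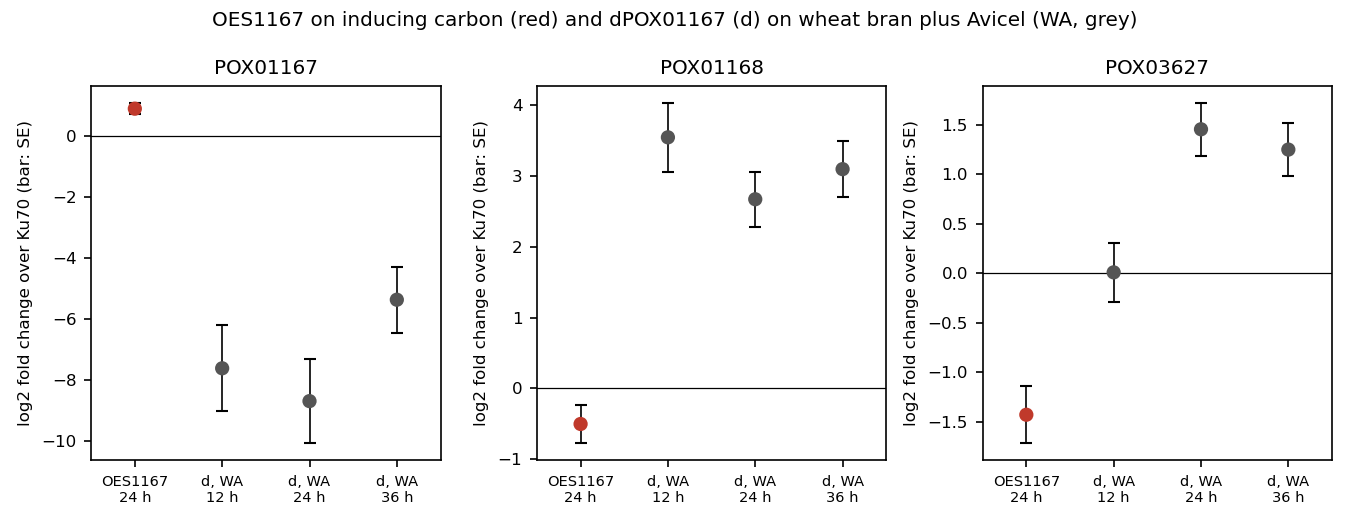
Log2 fold change over Ku70 (bars are SE) of POX01167, POX01168 and POX03627 in OES1167 on inducing carbon at 24 h (red) and in dPOX01167 on wheat bran plus Avicel at 12, 24 and 36 h (grey). POX03627 is at -1.43 in OES1167 and at 1.45 and 1.25 in dPOX01167 at 24 and 36 h; POX01168 is at -0.50 in OES1167, which did not pass the test, and at 2.67 to 3.55 in dPOX01167.

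Genes changed by the loss of clrB, another regulator gene of the series, were also looked up in OES1167. The strain dClrB, which lacks it, was compared with Ku70 on Avicel at 36 h (n = 3 each), and no library is shared with the OES1167 comparison. There 296 genes were lower in dClrB (3.68% of 8049 tested) and 386 were higher (4.8%). Of the 296, 7 were higher and 1 was lower in OES1167, which is 2.36% and 0.338% of that list and 12.3% of the 57 higher and 3.7% of the 27 lower genes of OES1167. Of the 386, 7 were higher and 6 were lower in OES1167, which is 1.81% and 1.55% of that list and 12.3% and 22.2% of the OES1167 genes. The medians of the log2 fold changes in OES1167 were -0.19 and -0.22 for the lists lower and higher in dClrB, beside -0.06 over all genes. These signs turned with the run of controls: against 11 to 13, 14 to 16, 17 to 19 and 20 to 22 the medians were -0.057, -0.24, 0.057 and 0.28 for the lower list and -0.0997, 0.014, 0.068 and -0.32 for the higher list. On Avicel at 12 h, 127 genes were lower in dClrB (1.58%) and 187 were higher (2.32%). Of the 127, 1 was higher and 2 were lower in OES1167 (0.787% and 1.57%). Of the 187, 5 were higher and 2 were lower (2.67% and 1.07%). Over all 8562 genes tested, 0.666% were higher and 0.315% were lower in OES1167, and the differences from these shares were not tested.

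The 7 genes lower in dClrB at 36 h and higher in OES1167 held some of the largest rises. In log2 fold changes, POX07173 was at 2.61 in OES1167 and -4.13 in dClrB at 36 h. POX04526 was at 3.01 in OES1167 and -2.74 in dClrB, POX04769 at 1.88 in OES1167 and -3.003 in dClrB, and POX06308 at 1.34 in OES1167 and -3.38 in dClrB. At 12 h the same 4 genes were at 0.62, 0.84, 0.19 and 0.70 in dClrB (adjusted p = 0.418, 0.169, 0.892 and 0.191, edgeR). The other 3 were POX04109, POX04110 and POX07456. POX03931 was the 1 gene lower in both, at -1.93 in OES1167 and at -3.34 in dClrB at 36 h and -6.47 at 12 h. Another 7 genes were higher in both OES1167 and dClrB at 36 h: POX04781, POX08906, POX08613, POX03820, POX09822, POX06932 and POX08799. POX04781 was at 3.40 in OES1167, and in dClrB at 1.15 at 36 h and -1.49 at 12 h. POX08613 was at 1.84 in OES1167, and in dClrB at 3.44 at 36 h and 0.11 at 12 h. Among genes higher in dClrB at 36 h but lower in OES1167, POX08880 and POX08876 were at -1.47 and -1.20 in OES1167. In dClrB they were at 3.14 and 1.80 at 36 h and at 1.02 and 0.25 at 12 h. POX05007 was higher in dClrB, by 3.25 (SE 0.73, adjusted p = 0.00274) at 36 h and by 2.97 (SE 0.73, adjusted p = 0.0125) at 12 h. These genes were named after both sets of calls were seen, and whether the overlaps exceed those of other genes was not tested.

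Called genes with close numbers were few. Within 3 numbers of each other there were 6 pairs among the 84: 4 pairs with both higher (POX00128 and POX00129, POX02066 and POX02069, POX04109 and POX04110, POX07277 and POX07278), 1 with both lower (POX05007 and POX05009) and 1 in opposite directions (POX04735 lower and POX04737 higher). These pairs were picked after the calls were seen and carry no test.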

How the data were processed

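RNA-seq of mycelium was deposited as 1 table per library with FPKM and expected counts, which are estimated read numbers per gene; per the file headers, the authors computed both. The submitters' processing notes name DESeq2, RSEM 1.2.12, Bowtie2 2.1.0 and BWA 0.7.10-r789; their roles, the genome build and strandedness are not given in the sources used here, nor is the annotation. The reference table (9964 genes) held 0 of the 9834 POX IDs, so no products, positions or sequences are printed. Lengths are multiples of 3 in 99.97% of IDs, hence coding lengths.

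Whole numbers were made of the deposited expected counts by rounding and were tested with edgeR 4.0.16 (R 4.3.3; quasi-likelihood, TMM scaling, 15 libraries averaging 1 CPM or more, two-sided), OES1167 against Ku70 11 to 22. On simulated counts with 8562 genes, 73.8%, 83.3% and 92.5% of genes changed by 1.5, 2 and 3 (log2) were called, with 4 false calls. The simulated libraries were drawn independently, without runs of 3, so these rates need not hold for controls that differ between runs. DESeq2 1.42.0, limma 3.58.1 on log2(FPKM + 1) with the deposited FPKM, other scalings, filters and control sets were alternatives. The dPOX01167 and dClrB contrasts came from a separate edgeR fit with their own Ku70 libraries, without the 1 labelled 13 h.

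Named were POX01167 and its neighbours, the enzyme lists and deleted regulators, and in each direction the 10 called genes with the largest fold (at least 10 CPM in the higher group, no overlap) and the 5 most abundant. Genes and lists were chosen with earlier results of these data known. Intervals cover counting error only.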

Additional observations from a re-analysis of the deposited data

How the results depend on the processing

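The calls depend on which libraries enter. POX05007 was called lower in all 35 alternative settings, POX04215 in 34 and POX04787 in 33; POX04594 was called higher in 34. No paired analysis was possible because OES1167 libraries carry letters and the controls numbers. The choices of summing runs, leaving out runs and switching off DESeq2's replacement of outlying counts were made after seeing the data.

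The counts of higher and lower genes were 91 and 156 with DESeq2 (36.8% higher, beside 67.9% in edgeR; 57 and 27 of them shared with edgeR), 90 and 152 without its replacement of outlying counts, 30 and 14 with limma, 37 and 14 at a mean of at least 10 CPM and 128 and 43 with no minimum fold. They were 15 and 3 with all 24 Ku70 induced libraries (10 and 3 shared), 515 and 293 with the 12 shallower ones (17 and 9 shared), 0 and 4 with runs summed, 232 and 268 without 11 to 13, 48 and 50 without 17 to 19, and 82 and 42 without 20 to 22. With RLE scaling they were 55 and 26 and with upper-quartile scaling 48 and 24. Leaving out 1 library at a time gave 1 to 74 higher and 3 to 35 lower genes, 0 cellulase and 0 xylanase calls, and 0.86 to 0.95 for POX01167. Single runs gave 420 and 441 (11 to 13), 441 and 742 (14 to 16), 488 and 431 (17 to 19) and 366 and 403 (20 to 22).

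POX01167 passed the call rule at 1.46 against 14 to 16, at 1.03 against the shallower libraries and at 0.91 with no minimum fold. Cellulase genes called higher were 1, 2, 1 and 6 by run, 1 without 11 to 13 and 1 with no minimum fold; 4 were lower against 11 to 13. Xylanase genes called higher were 2, 1 and 4 against the last 3 runs, 2 without 11 to 13 and 1 with DESeq2, and 3 were lower against 11 to 13.

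Among the called genes named in the text, POX01167 and the enzyme genes, signs turned for enzyme genes that were not called. Outside the enzyme lists, 16 named genes were not called, POX01167 included. Of these, 11 turned sign against 1 or more of the runs, among them POX01169 (0.36 against 14 to 16) and POX02968 (-0.29 against 17 to 19). Against 11 to 13 alone, POX00063, POX01166, POX02740, POX03641, POX04786, POX05571 and POX07535 were at -0.67, -0.43, -0.86, -0.21, -0.62, -1.06 and -1.69. Without 11 to 13, POX05570, POX05587, POX06783, POX08484 and POX08990 were at 0.64, 0.22, 0.86, 0.45 and 2.17; against 14 to 16 alone they were at 0.97, 0.16, 0.99, 0.14 and 2.34, and against 20 to 22 alone at 0.88, 0.36, 1.70, 2.03 and 2.46. Against 17 to 19 alone, POX01166, POX02740 and POX03641 were at -0.054, -0.057 and -0.17, and POX05570, POX05587, POX06783 and POX08990 at 0.19, 0.13, 0.24 and 1.78. Without 14 to 16, POX05571 and POX07535 were at -0.13 and -0.14; without 17 to 19, POX07535 was at -0.15. Without 20 to 22, POX02740, POX03641, POX04786, POX05571 and POX07535 were at -0.20, -0.077, -0.033, -0.20 and -0.18. With all 24 controls POX01166, POX02740, POX03641, POX04786, POX05571 and POX07535 were at -0.42, -0.55, -0.25, -0.47, -0.51 and -0.81, and with the shallower ones at -0.85, -1.001, -0.54, -0.90, -0.89 and -1.36. With limma POX05570, POX06783, POX08484 and POX08990 were at 0.18, 0.30, 0.093 and 0.69. With libraries 20 and 21 summed POX05571 was at -0.018. POX08990 was at 1.77 with DESeq2 and at -0.99 without its replacement of outlying counts, beside -0.98 in edgeR. Leaving out 1 library gave -0.14 to 0.11 for POX05570 and -0.018 to 0.24 for POX05571. The cause of these turns was not tested.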
